A study of Mus musculus with 16 samples.

Results

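The genes described here encode ionotropic and metabotropic glutamate receptors: the AMPA receptor subunits Gria1, Gria2, Gria3 and Gria4, the NMDA receptor subunits Grin1, Grin2a and Grin2b, and the metabotropic receptors Grm3 and Grm5. A gene was followed through every probe set whose only symbol in the platform's probe-to-gene table was that gene. This gave 16 probe sets for 8 genes, of 17097 genes with a probe set of their own among 45037 probe sets. Grin1, the obligatory NMDA receptor subunit, had 0 such probe sets and was not analysed here. Gria2, Gria4 and Grin2b had 3 probe sets each, Gria1 and Gria3 had 2 each, and Grin2a, Grm3 and Grm5 had 1 each. Where a gene had several, the one with the highest average level, called its first probe set, gives its values unless another is named.

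RNA was taken from tissue labelled striatum of male mice, 7 to 8 weeks old, of 2 inbred strains, and measured on 16 Affymetrix arrays. The 4 groups were A/J mice (A/JOlaHsd) given risperidone, A/J controls, DBA/2J mice (DBA/2JRccHsd) given risperidone, and DBA/2J controls, with 4 arrays labelled as biological replicates in each. An array is called a mouse below, though the sample titles do not say whether it holds RNA of 1 mouse or of several. Risperidone, a dopamine D2 and serotonin 2A receptor blocker used as an antipsychotic drug, was injected intraperitoneally at 1.0 mg/kg once a day for 3 days; the sample labels call the controls untreated, and the treatment protocol gives them saline. The comparisons ask whether the drug changed transcript levels in each strain, whether its effect differed between strains, and how the strains themselves differed.

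AMPA receptors are tetrameric cation channels that carry most fast excitatory transmission, and the Gria2 subunit, once its RNA has been edited, makes them poorly permeable to calcium. NMDA receptors are calcium-permeable channels that need both glutamate and a coagonist, and their GluN2 subunits, encoded by Grin2a and Grin2b among others, set channel kinetics and coupling inside the cell. Metabotropic receptors signal through G proteins: Grm5 activates phospholipase C on the postsynaptic side and is abundant in striatal projection neurons, while Grm3 lowers cyclic AMP and is made by neurons and astrocytes. In the striatum these receptors receive the input from cortex and thalamus.

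Some arrays stood apart or went against their labels. Over 46 to 49 probe sets that separated the strains, the share of DBA/2J signal was 28.5%, 36.5%, 0.283% and 39.7% on the A/J risperidone arrays, against -3.66% to 1.04% on the A/J control arrays, so 3 libraries labelled A/J risperidone (replicates 1, 2 and 4) lay between the strains. The DBA/2J arrays lay at 87.3% to 102%. DBA/2J control replicate 4 correlated least with the others (0.970 to 0.979) and received the lowest array weight, 0.178.

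The tissue label was set against defining genes. Drd2, the dopamine D2 receptor of striatal projection neurons, has 1 probe set. It was at 3.62 to 4.90 on the log2 scale and below the array median (5.66 to 5.71) on 16 of 16 arrays. Other genes of these neurons lay above the median on all arrays: 53.1% to 66.2% of probe sets were below Drd1, the D1 receptor, 59.3% to 87.4% below Penk, the enkephalin precursor, 54.4% to 86.2% below Tac1, the substance P precursor, 56.1% to 82.4% below Ppp1r1b, which encodes DARPP-32, and 81.3% to 88.2% below the phosphodiesterase Pde10a. Genes of cortical excitatory neurons stood high on each array: 96.8% to 98.5% of probe sets were below Slc17a7, a vesicular glutamate transporter, 88.6% to 93.6% below the transcription factor Tbr1 and 92.1% to 96.0% below Neurod2. For Cux2 the share was 95.5% to 97.9%, and for Neurod6 it was 82.1% to 90.0%. Levels of probe sets of different genes are not directly comparable, so these ranks do not settle the tissue. A fit with the mean levels of the striatal projection neuron, cortex and thalamus markers of each array as covariates (the regional marker covariates) is given beside the receptor results whose groups did not overlap, and beside some others.

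**Figure D1:**
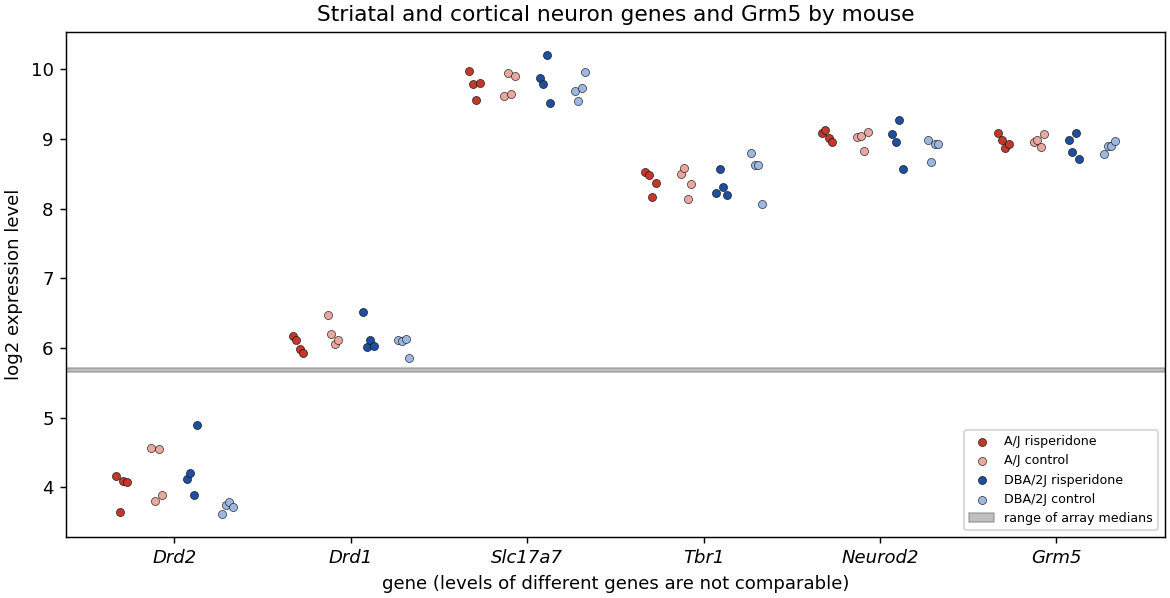
Log2 expression level (vertical axis) of Drd2, Drd1, Slc17a7, Tbr1, Neurod2 and Grm5 on each array, coloured by group, with the range of the array medians as a grey band. Drd2 was below the band on 16 of 16 arrays, and the 3 cortical neuron genes were far above it on all of them. Levels of different genes are not directly comparable.

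No receptor gene passed the test for a change with risperidone. In limma's moderated test, fitted to all 45037 probe sets with Benjamini-Hochberg adjustment, 0 of 16 receptor probe sets had an adjusted p under 0.05 in A/J mice, where 0% of all probe sets did. In DBA/2J mice 0 of 16 passed, where 0.04% of all did. The mean of both effects likewise gave 0 of 16 against 0.0266% of all, and the difference between the effects gave 0 of 16 against 0%. At an unadjusted p under 0.05 the receptor counts were 0 in A/J, 2 in DBA/2J, 1 for the mean and 1 for the difference between strains, beside 5.51%, 10.7%, 6.9% and 9.19% of all probe sets. Every other setting that could be run, the omission of each array in turn included, also gave 0 in each of these 4 comparisons; with a trended and robust variance, 0, 4, 1 and 5 had an unadjusted p under 0.05. Because the tissue was measured in bulk, fewer cells of a type and less RNA per cell cannot be told apart.

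The intervals show how large a change could have been missed. Over the first probe sets of the 8 genes, risperidone minus control in A/J mice differed from 0 by 0.0025 to 0.06 on the log2 scale, and the 95% confidence intervals lay between -0.32 and 0.24. In DBA/2J mice the differences were 0.0075 to 0.28 in size, with intervals between -0.45 and 0.54. The median difference over the 8 genes was -0.0088 in A/J mice and -0.023 in DBA/2J mice, beside -0.01 and 0.01 over all genes. Without the 3 A/J risperidone arrays between the strains, the A/J differences rest on a single treated A/J array. They were then -0.18 for Grin2a and Grm3, -0.17 for Gria4, -0.105 for Grm5 and -0.06 for Gria2. For Grin2b, Gria1 and Gria3 they were -0.05, -0.025 and -0.0075.

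**Figure D2:**
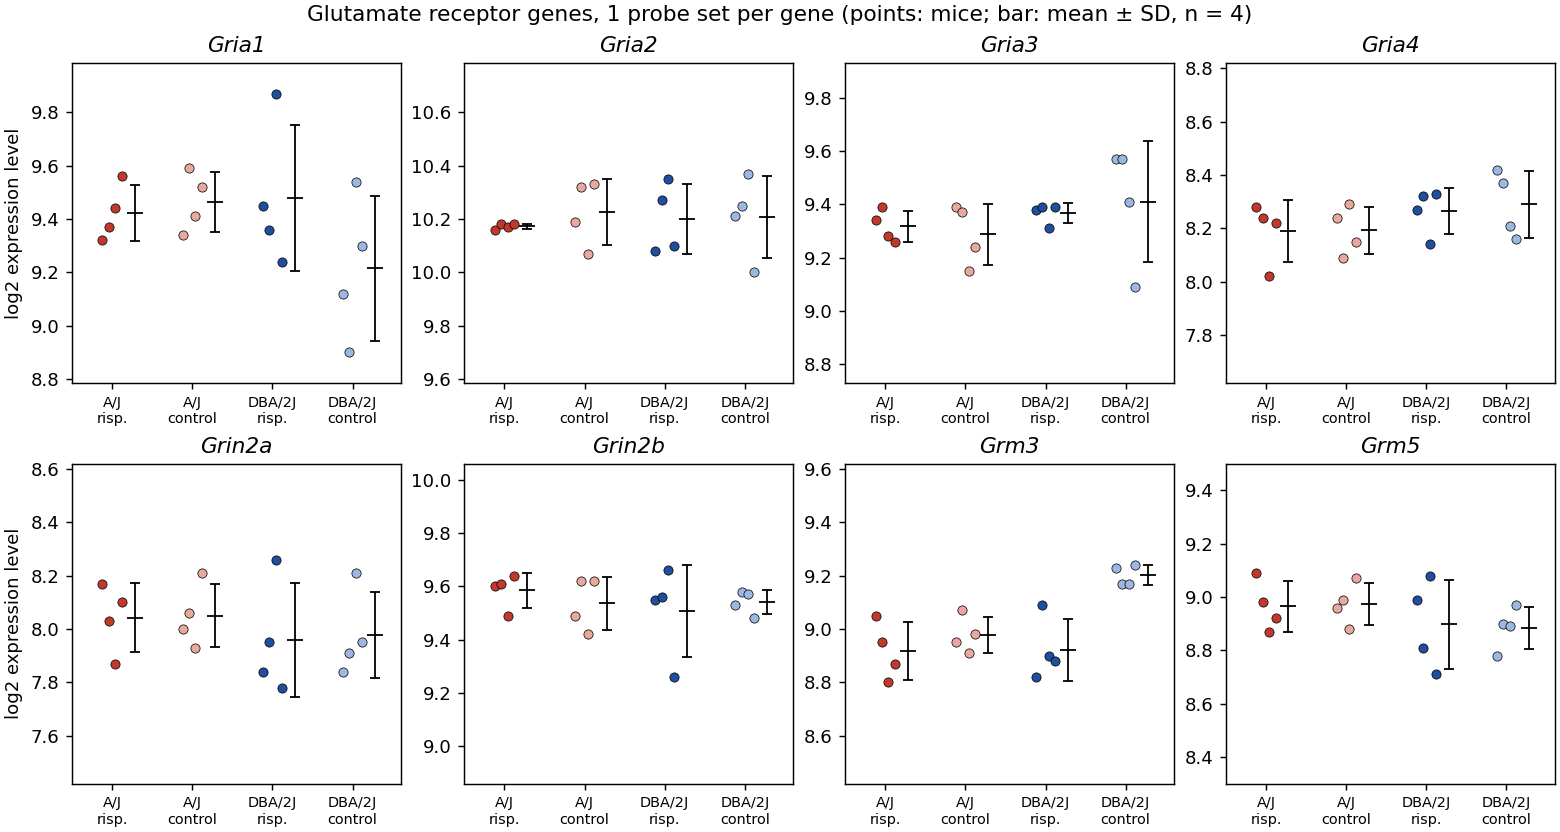
Log2 expression level (vertical axis, each panel spanning 1.2 log2 units) of the first probe set of each receptor gene, with 1 point per array and the mean ± SD of the 4 arrays in each group. Groups overlap for every gene except Grm3, where the 4 DBA/2J controls (9.17 to 9.24) lie above all other mice.

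Gria1, the AMPA subunit whose regulated delivery to synapses is tied to plasticity, was the most variable of the receptors between mice. Its levels were 9.45, 9.36, 9.87 and 9.24 in DBA/2J risperidone mice, against 9.12, 8.90, 9.54 and 9.30 in DBA/2J controls. Replicate 3 was the highest in both groups, and the groups overlapped. The difference, 0.27 ± 0.13 (SE), had an interval of -0.01 to 0.54 and an adjusted p of 0.485 in limma's test. It was 0.14 without DBA/2J risperidone replicate 3, 0.16 without DBA/2J control replicate 2 and 0.37 without DBA/2J control replicate 3. In A/J mice the levels were 9.32, 9.37, 9.44 and 9.56 with risperidone, against 9.34, 9.59, 9.41 and 9.52 in controls. These ranges lay almost on top of each other, and the difference was -0.04 (-0.32 to 0.24). The effect in DBA/2J minus that in A/J was 0.31 (-0.09 to 0.70, adjusted p = 0.621), or 0.18 without DBA/2J risperidone replicate 3 and 0.20 without DBA/2J control replicate 2. The second Gria1 probe set gave -0.12 in A/J mice and 0.23 in DBA/2J mice, with the same signs as the first.

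Gria2, the subunit that limits calcium entry, showed small differences in its first probe set. It stood at 10.16, 10.18, 10.17 and 10.18 in A/J risperidone mice, against 10.19, 10.32, 10.07 and 10.33 in A/J controls. The 4 treated A/J mice were within the range of the controls and spread far less (SD 0.0096 against 0.12). In DBA/2J mice the means were 10.20 ± 0.13 with risperidone and 10.21 ± 0.15 in controls (SD, n = 4 each), and the difference was -0.0075 (-0.20 to 0.18). The third Gria2 probe set had levels of 9.45, 9.58, 9.57 and 9.44 in DBA/2J risperidone mice, against 9.65, 9.59, 9.70 and 9.60 in DBA/2J controls. The groups did not overlap there, by a margin of 0.01, and the difference was -0.13 (-0.31 to 0.06, adjusted p = 0.610), or -0.03 with the regional marker covariates. The same probe set gave the opposite sign in A/J, 0.12 (-0.07 to 0.30).

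Gria3, an X-linked AMPA subunit, averaged 9.32 ± 0.06 in A/J risperidone mice and 9.29 ± 0.11 in A/J controls. It averaged 9.37 ± 0.04 in DBA/2J risperidone mice and 9.41 ± 0.23 in DBA/2J controls. The wide spread of that last group came from replicate 4, at 9.09, the array that stood apart, while the other 3 controls were at 9.41 to 9.57. The differences were 0.03 in A/J and -0.04 in DBA/2J, and the second probe set gave 0.13 and -0.11. Without DBA/2J control replicate 4 the DBA/2J difference was -0.15 (unadjusted p = 0.0677, adjusted p = 0.614 in limma's test), and the DBA/2J groups no longer overlapped.

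Gria4, a subunit of fast-gating AMPA receptors in interneurons, averaged 8.19 ± 0.12 in A/J risperidone mice and 8.19 ± 0.09 in A/J controls by its first probe set, and 8.27 ± 0.09 in DBA/2J risperidone mice and 8.29 ± 0.12 in DBA/2J controls. Its second probe set separated the DBA/2J groups: levels were 7.48, 7.65, 7.52 and 7.58 with risperidone, against 7.73, 7.76, 7.74 and 7.88 in controls. Every treated DBA/2J mouse was below every control. That difference, -0.22 (-0.39 to -0.05), had an adjusted p of 0.362 and was not shared by the other Gria4 probe sets, which gave -0.03 and 0.09. With the regional marker covariates it was -0.10 (unadjusted p = 0.416). The third has a mean level under 6, close to the array median, so its values carry little signal.

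With all 16 arrays and by their first probe sets, the NMDA receptor subunits differed little between treated and control mice. Grin2a, the GluN2A subunit that gives fast channel kinetics, averaged 8.04 ± 0.13 in A/J risperidone mice and 8.05 ± 0.12 in A/J controls, a difference of -0.0075 (-0.24 to 0.22). Without the 3 A/J risperidone arrays between the strains this A/J difference was -0.18, on a single treated A/J array. In DBA/2J mice Grin2a averaged 7.96 ± 0.21 with risperidone and 7.98 ± 0.16 in controls, a difference of -0.02 (-0.25 to 0.21). Grin2b, the GluN2B subunit that gives slow kinetics, averaged 9.59 ± 0.07 in A/J risperidone mice and 9.54 ± 0.10 in A/J controls, a difference of 0.05 (-0.13 to 0.23). Its DBA/2J means were 9.51 ± 0.17 with risperidone and 9.54 ± 0.05 in controls, a difference of -0.03 (-0.21 to 0.15). The one receptor probe set with an unadjusted p under 0.05 for the difference between strains was the third Grin2b probe set, -0.32 (-0.62 to -0.01, adjusted p = 0.529), also with a mean level under 6. It was -0.18 with the regional marker covariates (unadjusted p = 0.292). The first Grin2b probe set gave -0.08 for the same quantity.

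Grm3, the receptor that lowers cyclic AMP, had the largest difference with risperidone of any receptor probe set in DBA/2J mice, and it did not pass the test. Its levels were 8.82, 9.09, 8.90 and 8.88 in DBA/2J risperidone mice, against 9.23, 9.17, 9.17 and 9.24 in DBA/2J controls. All 4 treated DBA/2J mice were below all 4 controls, by 0.08 at the nearest pair. The difference was -0.28 ± 0.08 (SE, interval -0.45 to -0.11), 1.21-fold lower with risperidone, with an unadjusted p of 0.0023 and an adjusted p of 0.237 in limma's test. In A/J mice the levels were 9.05, 8.95, 8.80 and 8.87 with risperidone, against 8.95, 9.07, 8.91 and 8.98 in controls, which overlapped. The A/J difference was -0.06 (-0.23 to 0.11). The mean of both effects was -0.17 (adjusted p = 0.553), and the difference between them was -0.22 (-0.46 to 0.02, adjusted p = 0.559).

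Levels of regional markers in DBA/2J mice are set beside Grm3 here. The mean level of 9 cortex markers was 8.18, 8.33, 8.23 and 8.06 in DBA/2J risperidone mice, against 8.43, 8.34, 8.33 and 8.31 in DBA/2J controls, with 3 of 4 treated mice below all controls. The mean of 11 striatal projection neuron markers was 7.16, 6.92, 7.06 and 7.16 with risperidone, against 6.90, 6.88, 6.96 and 6.72 in controls, with 3 of 4 treated mice above all controls. The median difference of those markers was 0.18 by their first probe sets, with 7 higher and 4 lower with risperidone. Through any probe set and in either direction, 6 of 11 had an unadjusted p under 0.05, beside 15.5% of all genes. None, 0 of 11, passed limma's adjusted test. Of the 9 cortex markers, 3 were higher and 6 lower by their first probe sets. Through any probe set 4 had an unadjusted p under 0.05, and 0 passed the adjusted test. The mean of the thalamus markers was 6.01, 6.10, 6.16 and 6.52 with risperidone, against 6.05, 6.05, 5.99 and 6.16 in controls, which overlapped. The mean of the astrocyte markers was 8.54, 8.59, 8.64 and 8.72 with risperidone, against 8.59, 8.54, 8.56 and 8.49 in controls, which overlapped. With the regional marker covariates, the Grm3 difference in DBA/2J was -0.11 ± 0.11 (unadjusted p = 0.324). Whether regional content accounts for the Grm3 difference was not tested. Without the 3 A/J risperidone arrays between the strains, the mean of both effects on Grm3 was -0.23 in place of -0.17, and the A/J difference was -0.18 on a single treated array. The difference between the effects was then -0.10 (unadjusted p = 0.520) in place of -0.22, and it was -0.03 with the regional marker covariates.

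Grm5, the postsynaptic receptor coupled to phospholipase C, averaged 8.97 ± 0.10 in A/J risperidone mice and 8.98 ± 0.08 in A/J controls. Its DBA/2J means were 8.90 ± 0.17 with risperidone and 8.89 ± 0.08 in controls. The differences, -0.01 (-0.19 to 0.17) in A/J and 0.01 (-0.17 to 0.20) in DBA/2J, were within the spread of each group.

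Over all receptor probe sets, 3 of 16 had DBA/2J groups that did not overlap, beside 4.4% of all probe sets in either direction. Each was lower with risperidone (Grm3, the second Gria4 and the third Gria2). In A/J mice there were 0 of 16 without overlap, beside 4.42% in either direction. These 3 belong to 3 genes, of which Gria2 and Gria4 have other probe sets that do not share the separation.

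**Figure D3:**
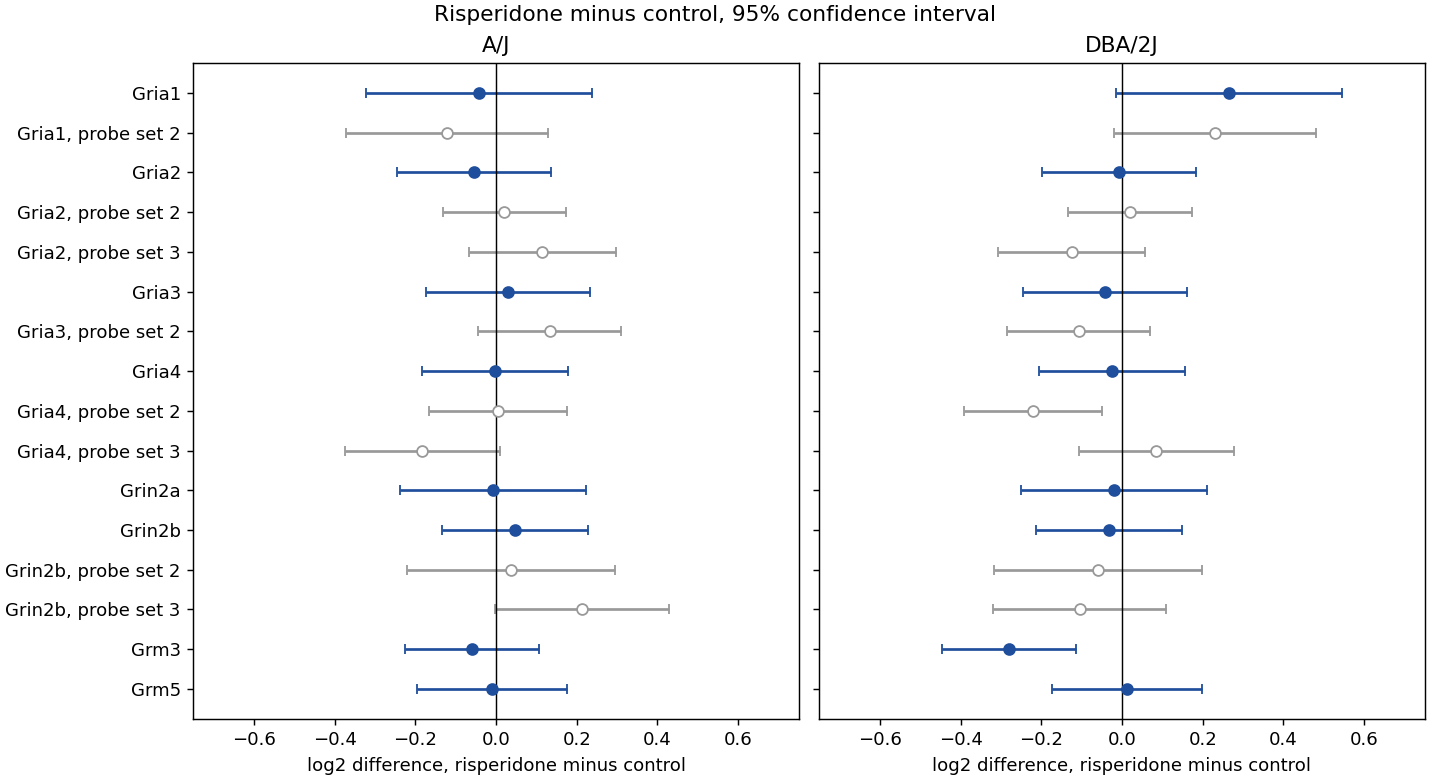
Log2 difference, risperidone minus control (horizontal axis), with its 95% confidence interval for each of the 16 receptor probe sets in A/J mice (left) and DBA/2J mice (right); filled points are the first probe set of a gene, open points its others. All 16 intervals in A/J include 0, and in DBA/2J those of Grm3 and the second Gria4 probe set do not.

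Between the strains, too, 0 of 16 receptor probe sets passed, in control mice (3.87% of all probe sets did) and in risperidone mice (0.782%). At an unadjusted p under 0.05 there were 4 in control mice, 3 of them higher in DBA/2J, and 1 in risperidone mice, beside 17.7% and 9.43% of all probe sets. The median over the 8 first probe sets was -0.0088 in control mice and 0.016 in risperidone mice, against -0.0025 and 0.018 over all genes. The comparison in risperidone mice includes the 3 A/J risperidone arrays that lay between the strains.

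The lowest adjusted p among the receptors was that of the second Gria1 probe set. It stood at 8.96, 8.80, 9.20 and 8.72 in DBA/2J controls, against 9.13, 9.41, 9.25 and 9.44 in A/J controls. The groups overlapped through DBA/2J replicate 3 alone, which was above 1 A/J control. The difference was -0.39 ± 0.12 (SE, -0.64 to -0.14), with an unadjusted p of 0.0043 and an adjusted p of 0.0807. It passed in 4 of the 27 other settings that could be run for it: with probe sets above the median level only (adjusted p = 0.0476), with a trended and robust variance (0.0448), without DBA/2J control replicate 3 (0.0295) and without DBA/2J risperidone replicate 3 (0.0418). The first Gria1 probe set gave -0.25 (-0.53 to 0.03, adjusted p = 0.341), or -0.15 without DBA/2J control replicate 2. With the regional marker covariates the second probe set gave -0.45 (adjusted p = 0.377). Markers of other cell types and regions also differed between the control groups. The thalamus markers were lower in DBA/2J for 9 of 9 genes (median -0.58), 3 of them past the threshold, and the microglia markers for 6 of 6 (median -0.35), 2 of them past it. The mean thalamus level was 5.99 to 6.16 in DBA/2J, against 6.49, 6.06, 7.51 and 6.55 in A/J. These overlapped, and A/J control replicate 3 was the highest. The mean microglia level was 6.08 to 6.33 in DBA/2J, against 6.63 to 6.79 in A/J. The oligodendrocyte markers also differed between the control groups: their mean level had a median of 8.14 in DBA/2J, against 8.65 in A/J, without overlap, and 9 of 9 were lower in DBA/2J, 4 of them past the threshold. A gene was counted as past the threshold through any of its probe sets, and 5.31% of all genes passed so, in either direction, between control mice. The part of the microglia and oligodendrocyte markers in the receptor differences was not tested. In risperidone mice the strain differences were 0.06 for the first and -0.04 for the second Gria1 probe set. Without the 3 A/J risperidone arrays between the strains they were 0.04 and -0.13, on a single treated A/J array.

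Grm3 was higher in each of the 4 DBA/2J controls (9.17 to 9.24) than in any A/J control (8.91 to 9.07). The difference was 0.23 ± 0.08 (SE, 0.06 to 0.39), with an adjusted p of 0.133, and with the regional marker covariates it was 0.11. With the share of DBA/2J signal as a covariate, which nearly coincides with strain, it was -0.10 (unadjusted p = 0.775). In risperidone mice Grm3 averaged 8.92 ± 0.12 in DBA/2J and 8.92 ± 0.11 in A/J, a difference of 0.005 (-0.16 to 0.17). Without the 3 A/J risperidone arrays between the strains, this Grm3 difference was 0.12, on a single treated A/J array. The order of its group means was DBA/2J control, A/J control, DBA/2J risperidone and A/J risperidone, and the lower 3 lay within 0.06 of each other, less than the SD of either risperidone group.

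The second Gria4 probe set was likewise higher in all DBA/2J controls (7.73 to 7.88) than in all A/J controls (7.41 to 7.72), by 0.18 (0.00 to 0.35, adjusted p = 0.270), while the third gave -0.18 and the first 0.10. Without A/J control replicate 2 it was 0.11, and with the regional marker covariates 0.17. This probe set and Grm3 were the 2 of 16 without overlap in control mice, both higher in DBA/2J, beside 9.33% of all in either direction. In risperidone mice the third Gria2 probe set was lower in all DBA/2J mice (9.44 to 9.58) than in all A/J mice (9.67 to 9.83), with a difference of -0.22 (-0.40 to -0.04, adjusted p = 0.400), or -0.26 with the regional marker covariates. Without the 3 A/J risperidone arrays between the strains it was -0.16, on a single treated A/J array. The third Gria2 probe set was the only receptor probe set of 16 without overlap in risperidone mice, beside 7.68% of all in either direction. The other Gria2 probe sets gave 0.03 and 0.01. Strain differences in control mice by the first probe sets were 0.12 for Gria3, -0.07 for Grin2a, 0.0025 for Grin2b and -0.09 for Grm5, with intervals that all include 0. The third Grin2b probe set, with a mean level under 6, gave 0.27 (0.06 to 0.49). Its unadjusted p was 0.0158 and its adjusted p 0.164 in limma's test, and with the regional marker covariates the difference was 0.06. Without DBA/2J control replicate 4 the Gria3 difference was 0.23, with an unadjusted p of 0.0081 and an adjusted p of 0.125 in limma's test.

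**Figure D4:**
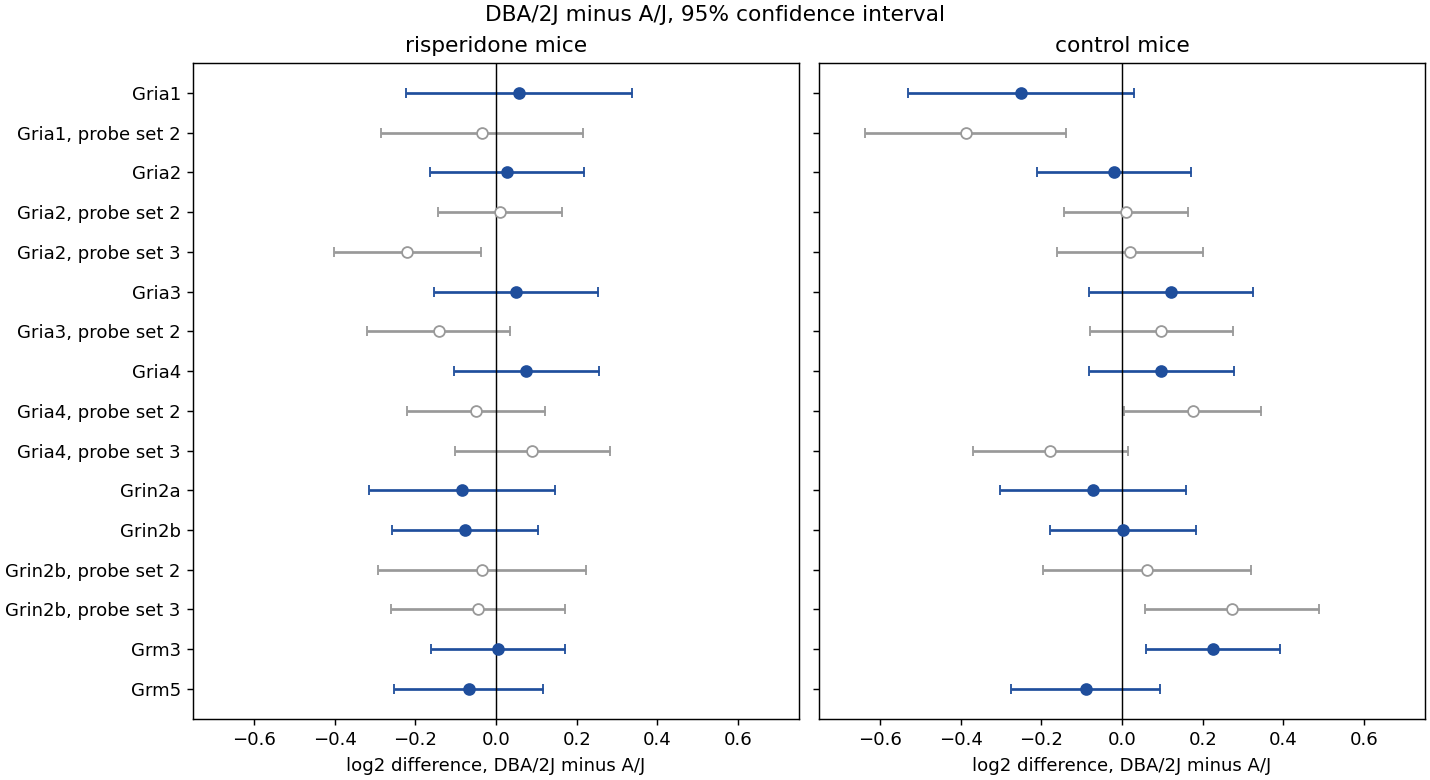
Log2 difference, DBA/2J minus A/J (horizontal axis), with its 95% confidence interval for each of the 16 receptor probe sets in risperidone mice (left) and control mice (right); filled points are the first probe set of a gene, open points its others. In control mice the intervals of 4 probe sets exclude 0, of which 1, the second of Gria1, is lower in DBA/2J.

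For genes with several probe sets, the probe sets often disagreed in sign: 2 of 5 such genes in each single-strain risperidone comparison and 4 of 5 between strains in risperidone mice. Gria2 disagreed in all 6 comparisons. Between neighbouring group means of the first probe sets, no difference that was tested passed the threshold.

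The other genes of the glutamate synapse were counted by 4 lists. Of 17 remaining receptor subunits 14 were measured, and 0 passed limma's test with risperidone, where 0% of all genes passed in A/J, 0.0643% in DBA/2J and 0.0526% for the mean effect; 1 subunit in A/J and 5 in DBA/2J had a probe set at an unadjusted p under 0.05, beside 7.84% and 15.5% of all genes. Between strains 5.31% of all genes passed in control mice and 1.02% in risperidone mice. In control mice 2 of the 14 passed, both higher in DBA/2J. They were Grik3, a kainate receptor subunit, by 0.36 ± 0.10 (adjusted p = 0.0493), and Grik1, another, by 0.46 ± 0.11 (adjusted p = 0.0236) through a probe set that is not its highest. Genes measured that encode auxiliary subunits of AMPA and kainate receptors numbered 16 of 17, and 0 passed limma's test in any comparison, with 0 to 5 at an unadjusted p under 0.05. The 5 were in DBA/2J mice with risperidone, and the share of all genes by the same rule was 7.84% to 23.9% over the 6 comparisons (10.2% for the mean effect, 12.8% for the difference between effects, 23.9% between control mice and 13.8% between risperidone mice). In control mice 13 of these 16 had a lower level in DBA/2J, with a median of -0.08, against -0.0025 over all genes. Of 20 measured scaffold and signalling genes, 1 passed with risperidone: Arc, whose product promotes removal of AMPA receptors from synapses, fell by 0.79 ± 0.13 (SE) in DBA/2J mice (adjusted p = 0.0367). Its levels averaged 9.31 ± 0.30 in DBA/2J risperidone mice and 10.1 ± 0.17 in DBA/2J controls, and 9.38 ± 0.13 in A/J risperidone mice and 9.79 ± 0.18 in A/J controls. Arc also fell by the mean of both effects, by 0.60 ± 0.09 (adjusted p = 0.0230). Of 11 measured transporter and glutamine cycle genes, 1 passed between control mice: Slc38a3, a glutamine transporter of astrocytes, was lower in DBA/2J, with a difference of -0.28 ± 0.07 (adjusted p = 0.0359).

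Within groups, the receptors varied from mouse to mouse with an SD of 0.0096 to 0.27 (median 0.11 over 32 gene and group pairs). Deviations from the group means were correlated between genes over the 16 mice, with permutation within groups (100000 resamples). Of 28 pairs, 19 were positive, with a median r of 0.24, and 0 passed after Benjamini-Hochberg adjustment of Pearson's r (lowest adjusted p = 0.0738). Spearman's rho passed for 2 pairs. Grin2b and Gria2 had r = 0.67 and rho = 0.75 (permutation p = 0.0051 and 0.0019, adjusted 0.0738 and 0.0424), and r = 0.64 without the 2 mice farthest from the median of Gria2. Grin2b and Grin2a had r = 0.70 and rho = 0.74 (permutation p = 0.0184 and 0.0030, adjusted 0.0738 and 0.0424), and r = 0.67 without the 2 mice farthest from the median of Grin2a. The highest r was that of Gria1 and Grin2a, 0.72, and it was 0.38 without the 2 mice farthest from the median of Gria1. The lowest r was that of Gria1 and Gria4, -0.70. Grm3 had r of -0.09 to 0.31 against the other genes.

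**Figure D5:**
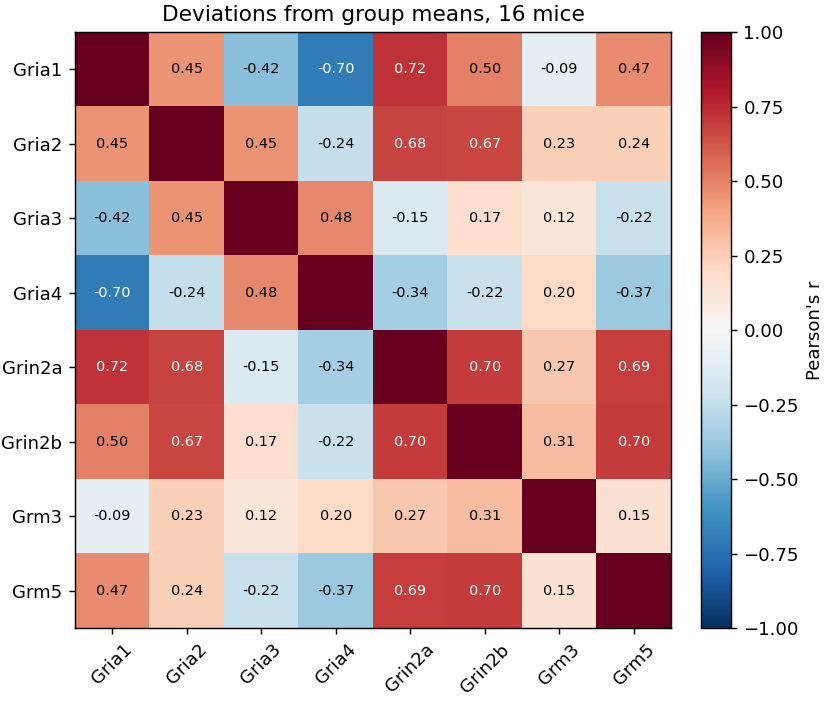
Pearson's r between the receptor genes (both axes) of deviations from the group mean over 16 mice, from -1 (blue) to 1 (red). Grin2a, Grin2b and Grm5 are positive with each other (0.69 to 0.70). So are Gria1 with Grin2a (0.72) and Gria2 with Grin2a (0.68) and Grin2b (0.67). Gria4 is negative against Gria1. No pair passed after adjustment of Pearson's r.

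The genes most like each receptor in these deviations, among probe sets naming 1 gene with a mean of at least 7, were found by Pearson's r over 16 mice and are given as a description. For Gria1 they were Golm1 (0.91) and Nr3c2 (0.90), for Gria2 Epha4 (0.91) and Fam131a (0.90), for Gria3 Wdr47 (0.93) and Sel1l3 (0.92), and for Gria4 Olfm3 (0.87) and Ccdc9 (0.87). For Grin2a they were Dlgap1 (0.86) and Snph (0.86), and for Grin2b Pgm2l1 (0.94) and Dpy19l3 (0.93). For Grm3 they were Tacc1 (0.91) and Trim37 (0.86), and for Grm5 Rybp (0.89) and Nr4a3 (0.85). Each was the highest of many correlations, which share the same arrays and normalization.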

How the data were processed

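Expression was measured on Affymetrix mouse expression arrays, 1 array per labelled biological replicate. Per the submitters' processing notes, the authors normalized the arrays with RMA, whose version is not given in the sources used here. The deposited values are log2 levels per probe set with 2 decimals, judged from the values. They were used without further transformation or filter. From 45141 rows, 104 array controls were left out. Probe sets were named by the platform table: 28898 probe sets name 1 gene, 551 several and 15588 none, and the 8 receptor genes measured matched RefSeq by Entrez ID.

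With limma 3.58.1 (lmFit, eBayes) in R 4.3.3, 1 model of the 4 group means was fitted over the 16 arrays, after a test of the code on simulated data. Its 6 two-sided comparisons were risperidone minus control in each strain, their mean and their difference, and DBA/2J minus A/J, among controls and among treated mice. Benjamini-Hochberg adjustment of the p-values covered 45037 probe sets, with a threshold of 0.05. Intervals are limma's 95% intervals. A gene is shown by the probe set whose average level is highest, and its other probe sets where they are called or differ in sign. Other genes were named from 4 lists where they passed, or by correlation with a receptor. The strain share of an array is the median position of its unlogged values between the strains' control means, over probe sets with a strain difference of at least 1.5 (log2), a level of at least 7 and an adjusted p under 0.01. Precision is limited by the number of arrays. The receptor genes and lists were chosen with earlier results of these data known. Same-numbered replicates of different groups were not treated as pairs. Alternatives were other normalizations, filters, variance models, covariates and sets of arrays.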

Additional observations from a re-analysis of the deposited data

Results flagged for a closer look

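Among 64 sets of 4 arrays (16 receptor probe sets in 4 groups), 3 had 1 array far from the other 3, by Dixon's criterion, which chance meets in about 1 in 20 groups. All 3 concern DBA/2J risperidone replicate 3. The second Gria1 probe set was at 9.50 there, above 9.02 to 9.05 in the other 3 mice of the group. The first Gria3 probe set was at 9.31, below 9.38 to 9.39, and the third Gria4 probe set was at 5.25, below 5.41 to 5.42. That mouse had the highest level of its group for 5 of the 8 receptor genes and the lowest for 2.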

How the results depend on the processing

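Counts of receptor probe sets past the threshold were recomputed under 29 other settings. Of 172 such counts, 168 kept their value of 0. The exceptions, all from the second Gria1 probe set between control mice, were 1 with probe sets above the median level only and 1 with a trended and robust variance, and 0 to 1 when each array was left out in turn. Of 2644 recomputed differences, 4 newly passed, 0 reversed a call and 241, in 59 of 96 differences, had the opposite sign of a value that was not called. The fit to the compared groups only could not be run for the mean effect and the difference between effects.

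Whether replicate numbers pair the samples cannot be decided from 4 same-numbered correlations a comparison, of which 1 or 2 exceeded 0.1. Correlations of deviations from group means averaged 0.049 for same-numbered arrays and -0.016 for others between the A/J groups. They averaged 0.074 and -0.025 between the DBA/2J groups, 0.056 and -0.020 between the control groups, and 0.025 and -0.008 between the risperidone groups. With the replicate block, 0 receptor probe sets passed in each comparison, and the Grm3 difference in DBA/2J mice was -0.28 (adjusted p = 0.226). That difference ranged from -0.34 to -0.25 when each array was left out, with adjusted p of 0.125 to 0.450, and over all settings the adjusted p was 0.125 to 1.00. The number of arrays, 4 a group, limits the precision to the intervals given.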
